A study of Homo sapiens with 6 samples.

Results

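Kinesins are motor proteins that walk along microtubules, and the kinesin superfamily genes were compared in human liver cancer cells with and without a knockdown of circFTO. The members were all rows of the deposited gene table whose symbol is KIF or KIFC followed by a number and at most 1 letter, which gave 42 of 60605 genes. They were divided by known role into 12 mitotic kinesins (KIF11, KIF14, KIF15, KIF18A, KIF18B, KIF20A, KIF20B, KIF22, KIF23, KIF2C, KIF4A and KIFC1) and the 30 other members. CENPE, a kinesin of the kinetochore, has no KIF symbol and was therefore read as a partner and not as a member.

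A kinesin turns the energy of ATP into steps along a microtubule, or, in a few families, into removal of tubulin from its ends. Transport kinesins carry vesicles, mitochondria, messenger ribonucleoproteins and the trains that build cilia, and they work in all phases of the cell cycle. Mitotic kinesins push spindle poles apart, move and align chromosomes, trim microtubule ends and organise the midzone where the cell divides, and in cultured cells their transcripts accumulate in late S, G2 and M phase.

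The data were 6 RNA-seq libraries of HepG2, an established human liver cancer line. All cells were labelled genotype WT, were grown in DMEM with 10% serum and were infected with a lentivirus. In 3 libraries the virus carried a control hairpin (sh-control), and in 3 it carried a hairpin against circFTO, a circular RNA of the FTO gene (sh-circFTO). The series title concerns growth without serine and glycine, but the labels of these libraries name no such deprivation. Their cell type is given as epithelial in one field and as mesenchymal in another, and nothing states which hairpin clone was used or whether the libraries of a group were separate cultures. The p-values therefore measure only the spread between these libraries, which may be technical.

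Total counts ran from 14932270 to 16178079 in sh-control and from 13361333 to 15809084 in sh-circFTO. Libraries differed more between the groups (chi-square per degree of freedom 97.6 to 112) than within them (2.05 to 4.60). Since every pair within a group differed as well, no library was an exact copy of another. The FTO gene had a log2 fold change of -0.01 (adjusted p = 0.937), and gene counts do not measure circFTO, so the knockdown cannot be checked here. Mitochondrially encoded genes took 7.72% to 8.11% of counts in sh-control and 6.47% to 6.75% in sh-circFTO. The hepatocyte marker list was strongly present, with a summed FPKM of 5847 to 5967 in sh-control and 4204 to 4288 in sh-circFTO. FPKM is the count scaled by exon length and by the library's total.

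Levels below are CPM, counts scaled to a common library size with TMM factors, given per library or as mean ± SD (n = 3). A log2 fold change sets sh-circFTO over sh-control and carries a standard error (SE). Adjusted p-values come from edgeR (quasi-likelihood, adjusted by Benjamini and Hochberg's method over all 12865 tested genes), and 0.05 was the threshold. A gene was tested where 3 or more libraries reached an FPKM of 1. Of these genes, 4479 (34.8%) passed the threshold as lower in sh-circFTO and 4490 (34.9%) as higher, and their median log2 fold change was 0.00. The libraries of the groups did not overlap for 35.7% of tested genes in the lower direction and for 35.8% in the higher direction. Scaling by library totals alone moved the median of all genes by 0.15 and the share of calls that were higher from 50.1% to 62.2%.

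All 12 mitotic kinesins were tested, and all 12 were lower in sh-circFTO, where 34.8% of tested genes were. Their median log2 fold change was -0.90, with a range of -1.26 (KIF4A) to -0.64 (KIF23), beside 0.00 over all tested genes. In each of the 12 every sh-circFTO library lay below every sh-control library, where 35.7% of tested genes did. The other kinesins went both ways. Of 30, 20 were tested, 5 were lower, 12 were higher (34.9% of tested genes were), 3 did not pass the threshold, and the median was 0.26. Of the 32 tested members 27 reached the minimum FPKM in all 6 libraries. KIF5A reached it in 3 sh-control and 1 sh-circFTO libraries, KIF7 and KIF27 in 2 and 3, KIF24 in 2 and 2, and KIF17 in 0 and 3, so that KIF17, 1 of the 12 called higher, was tested only through the group in which it was higher. In RNA from a whole culture, fewer dividing cells and less RNA in each dividing cell cannot be told apart.

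**Figure D1:**
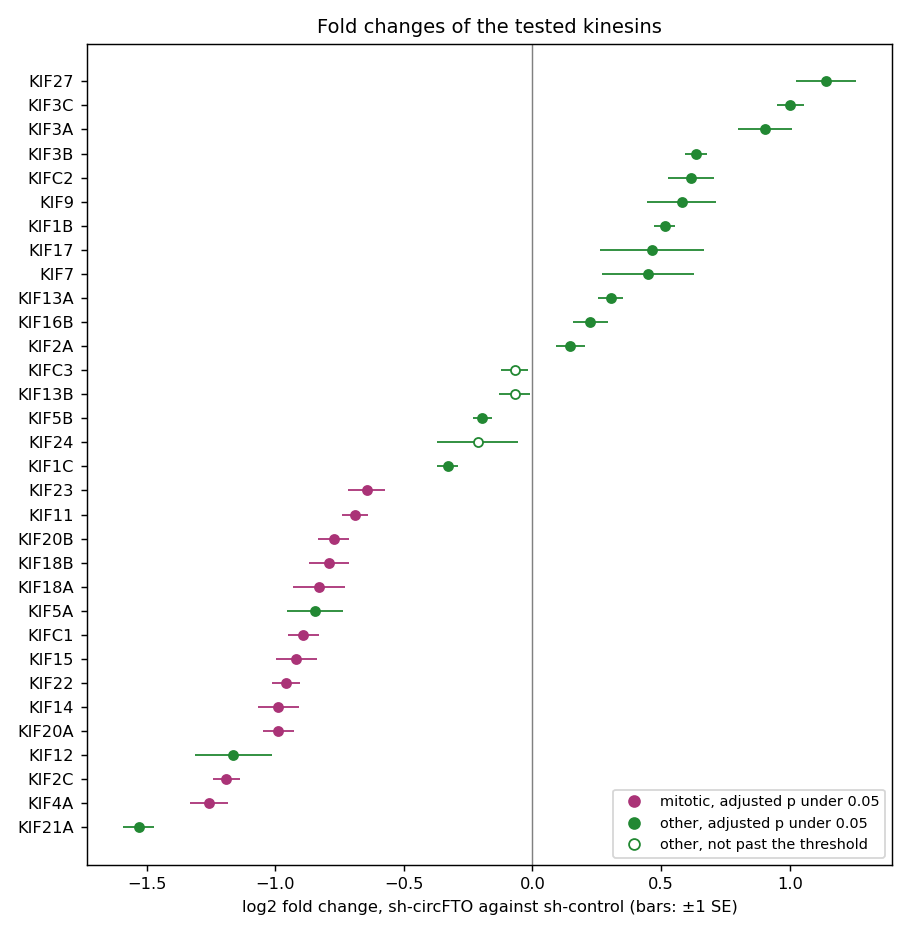
Log2 fold change (horizontal axis, sh-circFTO against sh-control, bars ±1 SE) of the 32 tested kinesins, mitotic members in purple and other members in green, open where the adjusted p did not pass. The 12 mitotic members lie between -1.26 and -0.64, while the other members reach from -1.53 (KIF21A) to 1.14 (KIF27).

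The promoters of the members give a sequence description that does not depend on the measured levels. RefSeq promoter windows (GRCh38.p14, 250 bases before the gene start and 50 from it, 300 in all) were found for 34 of the 42 members, all 12 mitotic and 22 other. They were read for 3 motifs on both strands. The first was the CCAAT box (CCAAT or ATTGG), the motif of NF-Y. The second was the cell cycle genes homology region, or CHR (TTTGAA or TTCGAA and their complements TTCAAA and TTCGAA), which MuvB complexes are known to bind in promoters of G2 and M phase genes. The third was an E2F core (TTTCGCGC, TTTGGCGC, TTTCCCGC or TTTGCCGC and their complements). None of the 3 motif sets contains another.

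The stretch from 130 bases before the gene start to 19 after it is shown for 4 mitotic members that hold both elements, with the matches in capitals. KIF4A had the largest fall of the mitotic members and has its CCAAT box at -58 and its CHR at -34 (chrX:70289974-70290123, plus strand). KIF18A has them at -45 and -10 (chr11:28108137-28108286, minus strand). KIF22 has them at -66 and -27 (chr16:29790621-29790770, plus strand), and KIFC1 has CCAAT boxes at -75 and -46 and a CHR at 4 (chr6:33391693-33391842, plus strand). Distances are those of the first base of a match on the gene's strand, with the start at 0.
KIF4A: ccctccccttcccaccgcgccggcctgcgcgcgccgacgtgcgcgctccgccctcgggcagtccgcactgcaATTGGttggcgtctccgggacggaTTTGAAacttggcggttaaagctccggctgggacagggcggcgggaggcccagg
KIF18A: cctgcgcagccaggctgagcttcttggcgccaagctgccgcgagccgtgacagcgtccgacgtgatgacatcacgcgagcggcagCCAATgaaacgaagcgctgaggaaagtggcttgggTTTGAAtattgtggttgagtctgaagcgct
KIF22: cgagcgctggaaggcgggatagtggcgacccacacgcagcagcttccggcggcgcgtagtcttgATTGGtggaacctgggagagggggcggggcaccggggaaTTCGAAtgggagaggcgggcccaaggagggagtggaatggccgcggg
KIFC1: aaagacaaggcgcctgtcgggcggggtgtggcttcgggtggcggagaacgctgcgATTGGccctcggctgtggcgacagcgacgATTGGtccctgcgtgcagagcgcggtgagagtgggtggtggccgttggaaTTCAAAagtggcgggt

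For contrast, the same stretch is shown for KIF2C, a mitotic member with a large fall and no match (chr1:44739707-44739856, plus strand), and for 3 other members. KIF24 holds both elements although it was not grouped as mitotic (chr9:34329249-34329398, minus strand). KIF21A had the largest fall of all tested kinesins (chr12:39443101-39443250, minus strand) and KIF3C a large rise (chr2:25982478-25982627, minus strand), and neither window holds any of the 3 motifs.
KIF2C: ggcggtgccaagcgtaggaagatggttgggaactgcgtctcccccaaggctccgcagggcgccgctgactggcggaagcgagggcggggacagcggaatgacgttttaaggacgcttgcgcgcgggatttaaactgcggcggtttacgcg
KIF24: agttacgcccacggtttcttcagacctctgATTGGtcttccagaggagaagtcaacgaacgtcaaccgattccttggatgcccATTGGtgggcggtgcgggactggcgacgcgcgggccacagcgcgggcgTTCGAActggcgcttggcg
KIF21A: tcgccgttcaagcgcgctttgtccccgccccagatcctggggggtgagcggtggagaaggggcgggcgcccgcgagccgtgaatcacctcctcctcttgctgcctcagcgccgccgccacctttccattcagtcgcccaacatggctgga
KIF3C: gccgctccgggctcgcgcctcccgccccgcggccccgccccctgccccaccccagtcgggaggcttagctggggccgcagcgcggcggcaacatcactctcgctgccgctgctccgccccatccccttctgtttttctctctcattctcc

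A CCAAT box was found in 10 of 12 mitotic promoters (83.3%), in 7 of 22 other kinesin promoters (31.8%) and in 35.7% of all 27305 windows in the table. A CHR was found in 10 of 12 (83.3%), in 3 of 22 (13.6%) and in 16.6% of all windows. Both stood in 9 of 12 mitotic windows (75.0%), in 3 of 22 other windows (KIF24, KIF4B and KIF5B, 13.6%) and in 6.58% of all windows. Among the 9122 tested genes with a matched window, 37.2% held a CCAAT box, 11.1% a CHR and 4.81% both.

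Within the mitotic members the 14 CCAAT matches started between -131 and -22 and the 11 CHR matches between -55 and 30. KIF15 held a CHR and an E2F core but no CCAAT box, KIF20A held CCAAT boxes but no CHR, and KIF2C held none. The E2F core was seen in 1 of 12 mitotic windows and in 1 of 22 other windows (KIF25). It was seen in 3.33% of all windows and in 5.57% of those of tested genes. A match describes letters only, and an absent match says only that these letters are not in this window.

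**Figure D2:**
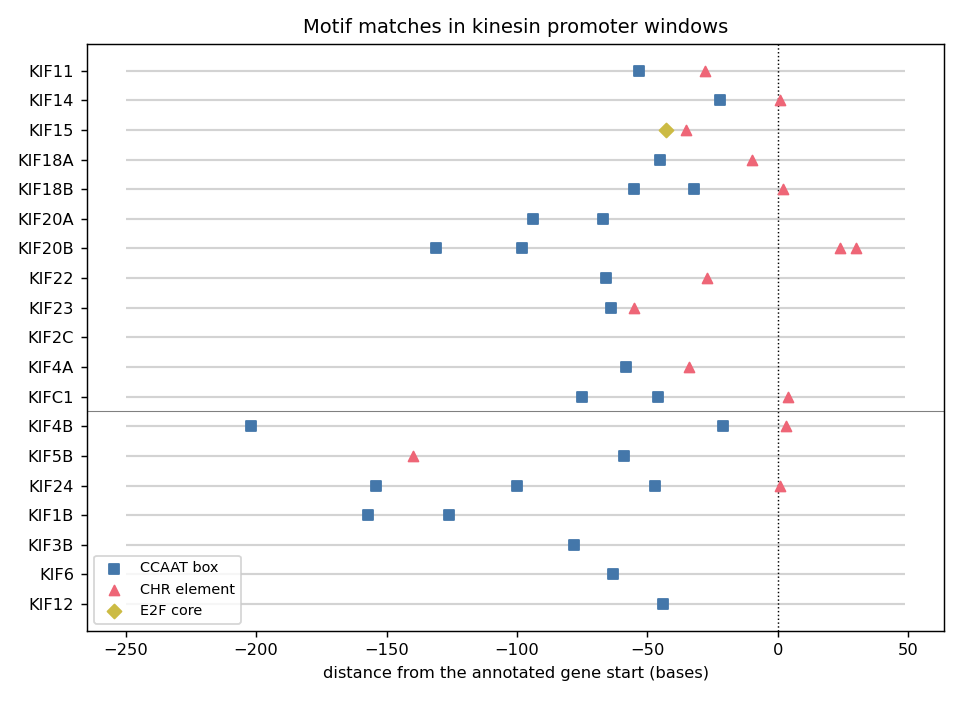
Positions of CCAAT (squares), CHR (triangles) and E2F core matches (diamonds) along the promoter window, in bases from the annotated gene start, for the 12 mitotic kinesins (above the line) and the 7 other kinesins with a CCAAT box (below). Mitotic CCAAT matches lie between -131 and -22, and KIF2C has no match.

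The motors that set up and hold the bipolar spindle were all lower. KIF11, a motor that slides spindle microtubules apart, measured 122.6, 112.2 and 115.8 CPM in sh-control and 71.0, 71.7 and 74.5 CPM in sh-circFTO (116.9 ± 5.26 to 72.4 ± 1.88). The groups were well apart, with a log2 fold change of -0.69 (SE 0.0522, adjusted p = 1.23e-12). KIF15, which can take over the work of KIF11, had 48.3, 47.9 and 53.9 CPM in sh-control and 24.1, 29.8 and 25.4 CPM in sh-circFTO, a log2 fold change of -0.92 (SE 0.0809, adjusted p = 3.39e-11). KIFC1, a minus-end motor that gathers spindle poles, had 88.4, 97.1 and 87.2 CPM in sh-control and 52.4, 47.9 and 47.1 CPM in sh-circFTO. Its log2 fold change was -0.89 (SE 0.0609, adjusted p = 1.26e-13), and for each of these genes the groups did not overlap.

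The chromosome-bound motors KIF4A and KIF22 were lower too. KIF4A, on chromosome X, shapes chromosomes and later works at the midzone with PRC1. It measured 65.7, 61.3 and 70.2 CPM in sh-control and 24.9, 28.5 and 28.8 CPM in sh-circFTO (65.7 ± 4.41 to 27.4 ± 2.15). That is the largest fall of the mitotic members, with a log2 fold change of -1.26 (SE 0.0730, adjusted p = 2.82e-15). KIF22, which pushes chromosome arms away from the poles, had 118.1, 121.9 and 117.7 CPM in sh-control and 60.03, 59.3 and 64.9 CPM in sh-circFTO, with a log2 fold change of -0.96 (SE 0.0533, adjusted p = 1.08e-15).

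The motors that act on microtubule ends were lower as well. KIF2C, which strips tubulin from microtubule ends at kinetochores, had 128.6, 131.0 and 126.7 CPM in sh-control and 54.2, 56.5 and 58.6 CPM in sh-circFTO, a log2 fold change of -1.19 (SE 0.0523, adjusted p = 3.95e-18). KIF18A, which damps chromosome movements so that they align, was the least abundant mitotic member, at 20.6, 23.6 and 23.4 CPM in sh-control and 12.96, 12.8 and 12.3 CPM in sh-circFTO. Its log2 fold change was -0.83 (SE 0.101, adjusted p = 2.41e-08). KIF18B, a relative that limits the length of astral microtubules, had 55.4, 63.3 and 50.3 CPM in sh-control and 34.5, 30.4 and 32.9 CPM in sh-circFTO (log2 fold change -0.79, SE 0.0782, adjusted p = 3.77e-10). The libraries of the groups did not overlap in any of the 3.

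The motors of the midzone and of cytokinesis were lower too, among them the member with the smallest mitotic fall, KIF23. KIF20A, which brings the chromosomal passenger complex to the midzone, had 81.9, 79.0 and 79.6 CPM in sh-control and 39.2, 40.9 and 41.2 CPM in sh-circFTO (log2 fold change -0.99, SE 0.0592, adjusted p = 6.08e-15). KIF14, which works with the citron kinase at the midbody, had 42.4, 43.7 and 42.3 CPM in sh-control and 19.8, 23.6 and 21.1 CPM in sh-circFTO (log2 fold change -0.99, SE 0.0810, adjusted p = 7.23e-12). KIF20B, needed for the last steps of cell separation, had 85.1, 83.9 and 95.6 CPM in sh-control and 50.2, 51.9 and 52.7 CPM in sh-circFTO (log2 fold change -0.77, SE 0.0602, adjusted p = 2.36e-12). All 3 showed groups that were clearly apart.

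KIF23, the motor subunit of centralspindlin, had the smallest change of the mitotic members. It measured 56.1, 63.4 and 53.0 CPM in sh-control and 38.2, 36.7 and 35.7 CPM in sh-circFTO, with a log2 fold change of -0.64 (SE 0.0711, adjusted p = 3.53e-09). RACGAP1, its partner in centralspindlin, went from 71.7 ± 1.41 to 32.4 ± 2.38 CPM (log2 fold change -1.15, SE 0.0661, adjusted p = 2.44e-15), so both subunits were lower. The difference between their fold changes was not tested. Annotated genes on the opposite strand overlap 561 exonic bases of KIF22 and 424 of KIFC1 (12.7%), and they were at or near 0 CPM. Expressed genes overlap 3 other mitotic members on the opposite strand. BRD8 (99.4 and 108.2 CPM in sh-control and sh-circFTO) shares 3.34% of the exonic bases of KIF20A, and CDC23 (48.9 and 27.1 CPM) shares 1.72%. PDZD11 (18.9 and 33.9 CPM) shares 1.7% of those of KIF4A, and METTL15 (20.6 and 17.9 CPM) 1.31% of those of KIF18A.

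**Figure D3:**
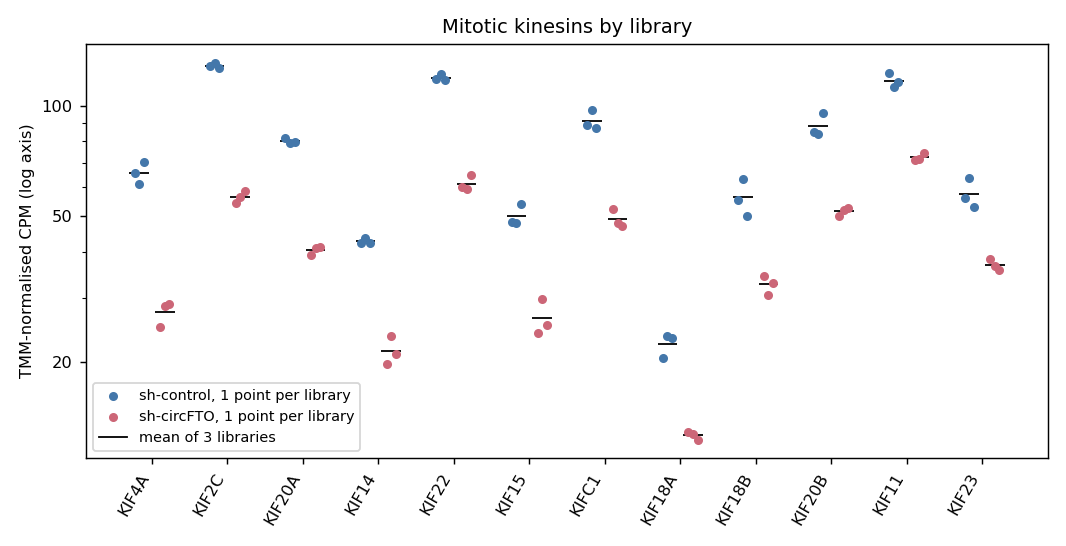
TMM-normalised CPM (log axis) of the 12 mitotic kinesins in each library, sh-control in blue and sh-circFTO in red, with a line at the mean of 3 libraries, ordered by fold change from KIF4A to KIF23. For every gene the 3 sh-circFTO libraries lie below the 3 sh-control libraries.

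Of the 28 listed regulators and partners with which these motors work, 27 were tested. Of these 26 were lower (34.8% of all tested genes were) and 1 was higher (34.9%), with a median of -0.99. PLK1, a kinase that several mitotic kinesins need for their recruitment or activity, went from 263.6 ± 16.5 to 89.2 ± 1.47 CPM (log2 fold change -1.56, SE 0.0478, adjusted p = 6.89e-22). CENPF, a kinetochore protein, and CDK1, the kinase of mitotic entry, had log2 fold changes of -1.21 and -1.18 (adjusted p = 8.56e-20 and 4.35e-18). TPX2, a spindle assembly factor that binds KIF11 and KIF15, had one of -1.05 (adjusted p = 1.54e-19). CENPE went from 69.9 ± 3.81 to 26.6 ± 2.95 CPM (log2 fold change -1.40, SE 0.0747, adjusted p = 4.27e-16), so the kinetochore kinesin outside the symbol rule was lower too. NUMA1, which anchors dynein at the poles, was the gene that was higher (log2 fold change 0.47, adjusted p = 1.48e-09).

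The 10 proliferation markers give the cell cycle setting of these values. Of 10 tested, 9 were lower (34.8% of all tested genes were) and 0 higher, with a median of -0.96. With library totals 8 were lower and 1 higher, while 3471 of all tested genes were lower and 5700 higher. MKI67, the Ki-67 antigen, had a log2 fold change of -1.19 (adjusted p = 5.98e-20), CCNA2 (cyclin A2) -1.24 (adjusted p = 7.20e-19), TOP2A (topoisomerase of mitotic chromosomes) -0.93 (adjusted p = 9.52e-19) and CDC20 (activator of the anaphase-promoting complex) -1.16 (adjusted p = 3.24e-18). PCNA, the DNA polymerase clamp, had 272.4 ± 10.5 and 270.7 ± 8.58 CPM (log2 fold change -0.01, adjusted p = 0.864), and it passed as higher under library totals. The part of a lower dividing share in the kinesin values was not tested.

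Of the transcription regulators of G2 and M phase genes (DREAM, MuvB, E2F and NF-Y subunits), 19 of 20 were tested. Of these 12 were lower and 3 higher, beside 34.8% and 34.9% of all tested genes, and the median was -0.34. Library totals gave 10 lower and 4 higher, while 3471 of all tested genes were lower and 5700 higher. MYBL2, which joins MuvB to activate such genes, went from 144.5 ± 2.98 to 25.8 ± 1.55 CPM (log2 fold change -2.49, SE 0.0592, adjusted p = 2.46e-24), a larger fall on the log2 scale than that of any tested kinesin. E2F1 had a log2 fold change of -1.47 (adjusted p = 1.49e-15), FOXM1, which binds with MuvB and MYBL2, one of -1.14 (adjusted p = 2.34e-15), and RBL1, a pocket protein of DREAM, one of -0.76 (adjusted p = 1.13e-10). The NF-Y subunits, which bind the CCAAT box, did not move together. NFYA was higher (0.53, adjusted p = 5.88e-09), NFYB was lower (-0.53, adjusted p = 1.69e-06) and NFYC had a log2 fold change of -0.01 (adjusted p = 0.922).

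Among the other kinesins, those of the kinesin-2 family and of cilia stood mostly on the higher side. Of 10 such members 8 were tested, 7 were higher (34.9% of all tested genes were), 0 were lower and KIF24 did not pass, and the median was 0.61. KIF17 is among the 7 but entered the test only through the group in which it was higher, and without it 6 of 7 were higher. Under DESeq2, and without sh-circFTO replicate 2 or 3, 5 of the 8 were higher. Within kinesin-2, KIF3A, KIF3B and KIF3C passed as higher.

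KIF3A, KIF3B and KIF3C form heterodimers that carry vesicles and, with KIFAP3, drive intraflagellar transport toward the cilium tip. KIF3A measured 21.1, 15.8 and 13.9 CPM in sh-control and 32.5, 30.9 and 31.6 CPM in sh-circFTO (log2 fold change 0.90, SE 0.106, adjusted p = 1.13e-08). KIF3B had 135.8, 126.9 and 130.4 CPM in sh-control and 202.2, 202.9 and 205.2 CPM in sh-circFTO (log2 fold change 0.64, SE 0.0433, adjusted p = 1.15e-13). KIF3C, which pairs with KIF3A, had 58.6, 58.3 and 53.9 CPM in sh-control and 113.0, 113.9 and 115.4 CPM in sh-circFTO (log2 fold change 1.003, SE 0.0537, adjusted p = 4.48e-16). The sh-circFTO libraries were all above the controls, and for KIF3A the control libraries were the more scattered group. KIFAP3, the cargo-binding subunit of the complex, went from 13.2 ± 1.05 to 35.4 ± 2.57 CPM (log2 fold change 1.42, SE 0.0939, adjusted p = 5.52e-14), so all 4 subunit genes of heterotrimeric kinesin-2 were higher.

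KIF17, a kinesin-2 that works as a homodimer, measured 3.91, 2.79 and 4.39 CPM in sh-control and 5.34, 4.99 and 4.94 CPM in sh-circFTO (log2 fold change 0.47, adjusted p = 0.0410). It reached the minimum FPKM in 0 sh-control and in 3 sh-circFTO libraries, so it entered the test only through the group in which it was higher, and its call is a description only. Under DESeq2 its adjusted p was 0.0796, and it ran from 0.0545 to 0.229 without sh-control replicate 1 or 2 or any 1 of the sh-circFTO libraries. KIF7, which acts in Hedgehog signalling at the cilium tip, had 5.87, 6.69 and 3.82 CPM in sh-control and 6.76, 7.82 and 7.83 CPM in sh-circFTO (log2 fold change 0.45, adjusted p = 0.0278). The call was lost without sh-control replicate 3 (adjusted p = 0.206), sh-circFTO replicate 2 (0.0822) or sh-circFTO replicate 3 (0.0816), and under DESeq2 (0.0505). TICRR overlaps 589 of its exonic bases (11.8%) on the opposite strand and went from 25.9 to 11.97 CPM on average, and the counting's use of strand is not given, so the KIF7 value is uncertain.

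KIF27 is a close relative of KIF7 that acts in motile cilia in mice. It had 7.89, 9.16 and 8.64 CPM in sh-control and 18.8, 20.3 and 17.6 CPM in sh-circFTO. All sh-circFTO libraries were above the controls, and its log2 fold change of 1.14 (SE 0.117, adjusted p = 7.54e-10) was the largest rise of the tested kinesins. Of the 50-base words in its GENCODE transcripts 26.7% also occur in another gene, so some of its reads could be split. The GENCODE ends differ by up to 2599 bases from the deposited KIF27. In that model AL354733.2 (0.16 and 0.82 CPM in sh-control and sh-circFTO) shares 8.58% of its exonic bases on the opposite strand. AL354733.1 (0 and 0.05 CPM) shares 6.77% there. KIF9, a motor of motile cilia, had 8.66, 8.06 and 10.3 CPM in sh-control and 14.8, 11.5 and 14.2 CPM in sh-circFTO (log2 fold change 0.58, SE 0.135, adjusted p = 0.000372). It shares 14.9% of its exonic bases with its antisense gene KIF9-AS1 (2.29 and 1.72 CPM) and 3.04% with KLHL18 (26.2 and 53.2 CPM), both on the opposite strand. KLHL18 was higher like KIF9, and the counting's use of strand is not given, so the KIF9 value is uncertain too.

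KIF24, which trims microtubules at the mother centriole and so holds back cilium assembly, had 6.49, 8.19 and 7.86 CPM in sh-control and 6.55, 6.92 and 5.97 CPM in sh-circFTO. These groups overlapped, with a log2 fold change of -0.21 (SE 0.158, adjusted p = 0.233). The remaining ciliary motors KIF6 and KIF19 had at most 5 counts in any library.

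The intraflagellar transport genes, whose products kinesin-2 carries, were mixed. Of 20 listed, 17 were tested. Of these 4 were lower and 9 higher, beside 34.8% and 34.9% of all tested genes, with a median of 0.35. Scaled by library totals, 2 were lower and 11 higher, while 3471 of all tested genes were lower and 5700 higher. TTC21B, of the complex for return transport, had a log2 fold change of -0.77 (adjusted p = 4.21e-13). WDR19 and IFT122, of the same complex, had log2 fold changes of 0.92 and 0.87 (adjusted p = 2.47e-12 and 1.48e-09), and IFT22, of the outward complex, had 1.29 (adjusted p = 1.28e-10). Markers of multiciliated cells were near the floor, with a summed FPKM of 4.18 to 6.36 in sh-control and 6.63 to 8.19 in sh-circFTO. Of these 10 markers 3 were tested, RSPH4A (2.21, adjusted p = 4.09e-08) and CCDC40 (0.72, adjusted p = 6.50e-06) being higher. In which libraries RSPH4A and CCDC40 reached the minimum FPKM is not given here. They may have entered the test only through the group in which they were higher, so their calls are descriptions only. FOXJ1, the master regulator of motile cilia, had a log2 fold change of -0.53 (adjusted p = 0.00782), a call lost under library totals (-0.38) and without sh-control replicate 2 (-0.30) or sh-circFTO replicate 2 (-0.41). It was also lost under limma on log2(FPKM + 1) (-0.26, adjusted p = 0.154) and on log2(FPKM + 0.1) (-0.34, adjusted p = 0.155).

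**Figure D4:**
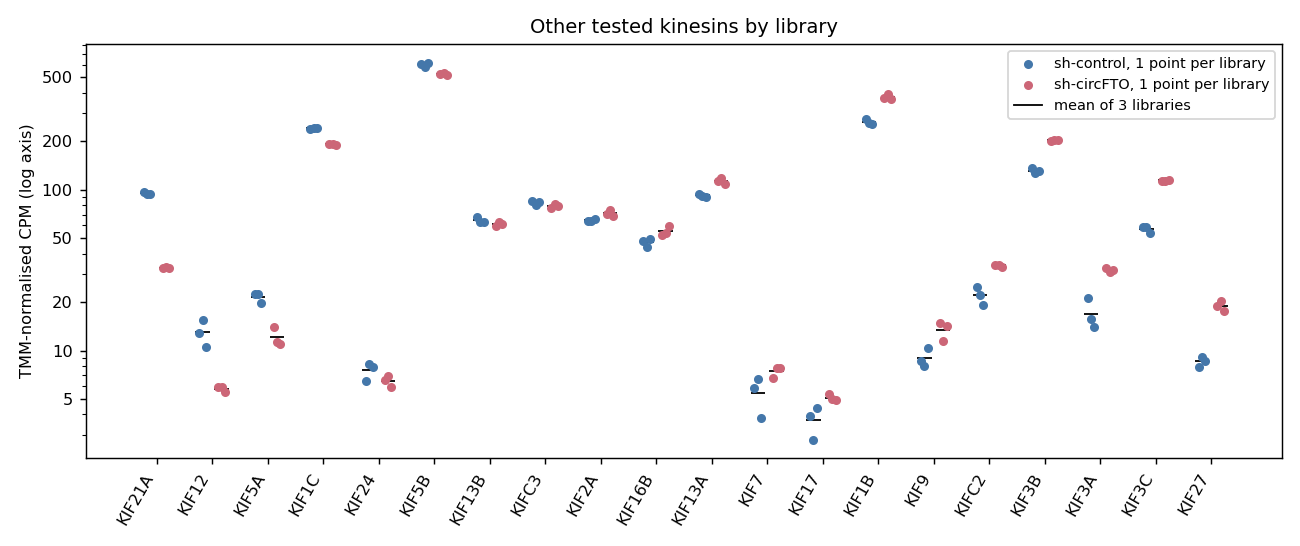
TMM-normalised CPM (log axis) of the 20 other tested kinesins in each library, sh-control in blue and sh-circFTO in red, with a line at the mean of 3 libraries, ordered by fold change from KIF21A to KIF27. The groups overlap for KIF24, KIF13B and KIFC3.

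The cargo motors outside kinesin-2 had members on both sides. Of 13 such members 10 were tested, 4 were lower (3 under library totals, without KIF5B), 4 were higher and 2 did not pass, with a median of -0.07. These counts are near the shares of all tested genes (34.8% lower and 34.9% higher), so they are no result about cargo motors as a group.

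KIF21A, a kinesin that slows microtubule growth at the cell cortex, had the largest fall of all tested kinesins. Its gene lies on chromosome 12 (chr12:39293228-39443390 in the deposited table, the same ends as in GENCODE on GRCh38). It measured 96.4, 93.7 and 94.2 CPM in sh-control and 32.5, 33.0 and 32.8 CPM in sh-circFTO, with a log2 fold change of -1.53 (SE 0.0589, adjusted p = 1.66e-19). The groups were far apart and the libraries within each nearly equal. KIF21B, its paralog known mainly from neurons and immune cells, was below the FPKM minimum. Summed over each group, it had 248 counts in the controls and 42 after the knockdown.

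Kinesin-1 is the main motor of organelle and vesicle transport, and its tested heavy chains were lower. KIF5B, the chain found in most cell types, was the most abundant kinesin per length and had 607.4, 580.3 and 615.6 CPM in sh-control and 521.0, 534.0 and 519.9 CPM in sh-circFTO. The groups did not overlap, and the change was small (log2 fold change -0.20, SE 0.0372, adjusted p = 3.37e-05). Under library totals it was -0.05 and did not pass (adjusted p = 0.224). KIF5A, the chain best known from neurons, had 22.6, 22.6 and 19.7 CPM in sh-control and 13.96, 11.2 and 11.04 CPM in sh-circFTO (log2 fold change -0.84, SE 0.110, adjusted p = 8.31e-08). KIF5C, the third chain, was not tested and summed to 40 counts in the controls and 136 after the knockdown.

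In the kinesin-3 family the members differed in direction. KIF1B, a carrier of mitochondria and of synaptic vesicle precursors, had 274.1, 261.9 and 256.9 CPM in sh-control and 372.5, 391.8 and 367.8 CPM in sh-circFTO (log2 fold change 0.51, SE 0.0408, adjusted p = 3.38e-12). KIF1C, a carrier of dense-core vesicles and integrins, had 239.3, 241.9 and 241.4 CPM in sh-control and 192.9, 191.8 and 190.3 CPM in sh-circFTO (log2 fold change -0.33, SE 0.0399, adjusted p = 2.02e-08). So these near relatives stood on opposite sides, each with groups that did not overlap.

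KIF13A and KIF16B, motors of endosomes, were higher, with log2 fold changes of 0.30 (adjusted p = 4.38e-06) and 0.23 (adjusted p = 0.00419), the KIF16B call being lost without sh-circFTO replicate 3 (adjusted p = 0.0508). KIF13B, a carrier of signalling receptors, had 67.5, 63.1 and 62.8 CPM in sh-control and 59.5, 63.0 and 61.6 CPM in sh-circFTO. Its groups overlapped, with a log2 fold change of -0.07 (SE 0.0585, adjusted p = 0.296) that was 0.076 under library totals. No call was made under either scaling.

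The C-terminal motors outside mitosis are KIFC2, described from neurons, and KIFC3, which acts at cell junctions. KIFC2 had 24.9, 22.2 and 19.1 CPM in sh-control and 34.3, 34.2 and 33.0 CPM in sh-circFTO, with all sh-circFTO libraries higher (log2 fold change 0.62, SE 0.0892, adjusted p = 4.98e-07). FOXH1 overlaps 17.8% of its exonic bases on the opposite strand but was near 0 (0.09 and 0.12 CPM). KIFC3 had 85.5, 80.2 and 84.0 CPM in sh-control and 77.3, 81.3 and 79.2 CPM in sh-circFTO, groups that overlapped, with a log2 fold change of -0.07 (SE 0.0533, adjusted p = 0.252) that was also 0.076 under library totals.

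The last tested members are KIF12 and KIF2A. KIF12, known from kidney and liver epithelia, had 12.8, 15.5 and 10.5 CPM in sh-control and 5.91, 5.96 and 5.52 CPM in sh-circFTO, and all its sh-circFTO libraries were lower (log2 fold change -1.16, SE 0.151, adjusted p = 7.34e-08). KIF2A strips tubulin from microtubule ends at spindle poles and in neurons, and so has a mitotic role although it was grouped with the others. It had 64.3, 63.5 and 65.3 CPM in sh-control and 70.6, 74.3 and 68.8 CPM in sh-circFTO (log2 fold change 0.15, SE 0.0565, adjusted p = 0.0226). Its call was lost with a lower filter and without sh-control replicate 1 or 2 or sh-circFTO replicate 2 (adjusted p from 0.0540 to 0.135). In the GENCODE model of KIF2A, IPO11 shares 8.97% of the exonic bases on the same strand. IPO11 went from 37.9 to 27.6 CPM on average. That model's ends differ by up to 146224 bases from the deposited KIF2A, so whether the counted gene holds these bases is not known.

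Of the light chains and cargo adaptors of transport kinesins, 28 of 30 listed symbols matched the table and 24 were tested. Of these 15 were higher and 5 lower, beside 34.9% and 34.8% of all tested genes, with a median of 0.35. TRAK1 and TRAK2, which link kinesin-1 to mitochondria, had log2 fold changes of 1.001 and 0.76 (adjusted p = 1.15e-16 and 5.41e-14). RAB6A, a Golgi GTPase that binds several kinesins, had one of -0.60 (adjusted p = 4.07e-13). Cytoplasmic dynein and dynactin, which move cargo the opposite way, had members on both sides. Of 27 tested 16 were higher and 7 lower, beside 34.9% and 34.8% of all tested genes, and the median was 0.34. Under library totals 20 were higher and 5 lower, while 5700 of all tested genes were higher and 3471 lower. The heavy chain DYNC1H1 had a log2 fold change of 0.95 (adjusted p = 1.46e-18), ACTR1A of the dynactin filament one of 0.97 (adjusted p = 6.31e-18), the intermediate chain DYNC1I2 one of 0.75 (adjusted p = 5.04e-15) and the light chain DYNLL1 one of 0.82 (adjusted p = 9.46e-15).

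The 10 members below the FPKM minimum were KIF19, KIF1A, KIF21B, KIF25, KIF26A, KIF26B, KIF2B, KIF4B, KIF5C and KIF6. KIF25, KIF26A and KIF2B had 0 counts in all 6 libraries and KIF19 had 1. In a fit of 20677 genes with at least 10 counts over the 6 libraries, where 25.6% of genes passed as lower and 25.6% as higher, 6 of the 10 could be read. KIF21B was lower (log2 fold change -2.65, SE 0.274, adjusted p = 5.45e-14), and KIF5C (1.65, SE 0.332, adjusted p = 1.40e-05) and KIF26B (2.28, SE 0.723, adjusted p = 0.00565, from 7 and 37 counts) were higher. KIF1A, KIF4B and KIF6 had at most 15 counts in any library and did not pass. KIF4B is an intronless copy of KIF4A, and 13.4% of the 50-base words of KIF4A occur in it. Its summed counts were 8 in the controls and 16 after the knockdown.

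Several of these lowly expressed kinesins are known from neurons, and the neuronal markers were at the floor. The summed FPKM of the 10 markers was 0.34 to 0.61 in sh-control and 1.02 to 1.37 in sh-circFTO, 0 of 10 reached the minimum, and STMN2 and ELAVL4 were at 0 in all libraries. Markers of stromal and blood cells summed to 1.60 to 2.31 FPKM in sh-control and 3.16 to 3.35 FPKM in sh-circFTO, with PTPRC and LUM at 0. Of these 12 markers 1 was tested (PECAM1, log2 fold change 0.67, adjusted p = 0.000447). PECAM1 may have entered the test only through the group in which it was higher, so its call is a description only. The hepatocyte list had 9 of 10 lower and 1 higher, beside 34.8% and 34.9% of all tested genes, with a median of -0.79. By library totals it had 7 lower and 1 higher, while 3471 of all tested genes were lower and 5700 higher. APOB had a log2 fold change of -1.59 (adjusted p = 2.65e-24), AHSG -1.23 (adjusted p = 3.39e-23), SERPINA1 -0.96 (adjusted p = 1.06e-20) and HNF4A -1.17 (adjusted p = 3.81e-20).

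On the FPKM scale, which allows levels of different genes to be added, the make-up of the kinesin transcripts differed between the groups. The mitotic members summed to 193.9 ± 2.66 FPKM in sh-control and to 112.3 ± 1.43 FPKM in sh-circFTO, and the other members to 226.7 ± 4.85 and 260.3 ± 2.64 FPKM. FPKM uses library totals without TMM factors, a scaling under which the median log2 fold change of all tested genes was 0.15. Both sums carry that shift, so the higher sum of the other members is in large part a matter of scaling. The mitotic share of summed kinesin FPKM was 45.5%, 46.9% and 45.9% in the sh-control libraries and 30.02%, 29.9% and 30.5% in the sh-circFTO libraries. Every sh-circFTO library was thus far below every control, and the share was 46.1% ± 0.730 and 30.1% ± 0.356 (n = 3). This share does not depend on how libraries are scaled.

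**Figure D5:**
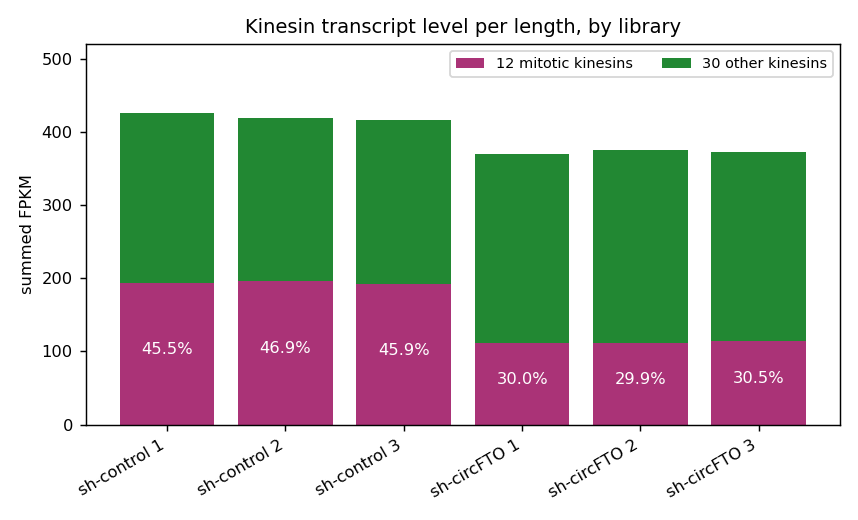
Summed FPKM of the 12 mitotic (purple) and the 30 other kinesins (green) in each of the 6 libraries, with the mitotic share printed on each bar. The share lies between 45.5% and 46.9% in sh-control and between 29.9% and 30.5% in sh-circFTO.

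KIF5B had the highest FPKM in both groups (97.4 ± 2.87 and 94.1 ± 1.39). In sh-control it was followed by KIF2C (33.6 ± 0.656), KIFC1 (28.5 ± 1.73), KIF1C (26.7 ± 0.114) and KIF22 (26.3 ± 0.558), of which KIFC1, KIF1C and KIF22 lay within about their spread of each other. In sh-circFTO the places after KIF5B were taken by KIF3B (35.0 ± 0.297), KIF1C (23.5 ± 0.150), KIF1B (22.1 ± 0.743) and KIF3C (18.8 ± 0.212), and the first mitotic member was KIFC1 (17.1 ± 0.981) at place 6. KIF3C moved from place 15 to place 5 and KIF4A from place 10 to place 17.

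Relatives within kinesin families were also compared, by the FPKM ratio of the mitotic member to its other relatives. In family 13 the ratio of KIF2C to KIF2A, KIF2B and KIF24 was 5.80 ± 0.188 in sh-control and 2.40 ± 0.168 in sh-circFTO. For KIFC1 against KIFC2, KIFC3 and KIF25 it was 2.21 ± 0.195 and 1.02 ± 0.0653. For KIF14 against the rest of family 3 it was 0.0931 ± 0.00254 and 0.0445 ± 0.00339, and for KIF4A against the rest of family 4 it was 1.197 ± 0.106 and 0.827 ± 0.0558. The libraries of the groups did not overlap in these 4 families. In family 4 the relatives of KIF4A went both ways. KIF21A fell from 8.91 ± 0.167 to 3.40 ± 0.0306 FPKM, and its log2 fold change of -1.53 was a larger fall than the -1.26 of KIF4A. KIF27 rose from 1.05 ± 0.0802 to 2.56 ± 0.180 FPKM. In family 12, where KIF12 was also lower, the ratio of KIF15 to KIF12 was 2.29 ± 0.587 and 2.62 ± 0.272, and the groups overlapped.

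The gene annotation in the deposited table names mitosis and spindle terms for 12 of 12 mitotic members and for 5 of the 30 others (KIF25, KIF2A, KIF2B, KIF3B and KIF4B). The grouping did not read it, but both rest on known roles, so their match is no independent support. Cilium terms were given for 0 of 12 and for 11 of 30, and cytokinesis terms for 5 of 12 and 3 of 30. Vesicle or axon terms, a search that also takes in axoneme terms, stood for 8 of 12 mitotic members and 22 of 30 others. Golgi terms stood for 8 of 12 and 13 of 30, and the 8 mitotic members were the same in both searches. Of the 5 others with mitosis terms only KIF2A and KIF3B were tested, and both passed as higher.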

How the data were processed

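A single table held all 6 libraries. Per the file headers, the authors deposited raw gene counts, FPKM values and exonic gene lengths in it. All 363630 FPKM values equalled count over length and library total within 0.00501. Which aligner, counter, strand setting and annotation were used is not given in the sources used here. Builds named in the submitters' processing notes are GRCm38, mm10 and hg18, but the gene identifiers are human, and all 42 kinesins lie on the same chromosome in GENCODE on GRCh38. Exon overlaps and shared words were read from GENCODE models, whose ends differ from the deposited ones for some members. Overlapping, antisense and copied genes could be split in the counting.

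Groups came from the labels. The members and the lists were chosen with earlier results of these data known. Genes that reached an FPKM of 1 in 3 or more libraries were tested with edgeR 4.0.16 (R 4.3.3, TMM scaling, quasi-likelihood test, Benjamini-Hochberg adjustment). This step was also run on simulated data. There only a small part of the genes was changed, equally in both directions, so the run does not cover changes as wide as those seen here. Lists are described by counts and medians, without a test. All 12 mitotic members are named. Among the others the 6 largest rises past the test and up to 6 falls, of which there were 5, are named. So are the 5 highest by FPKM and those within 0.1 log2 of no change among the others. Up to 4 genes of each list are named by adjusted p. The genes of the NF-Y, multiciliated and overlap statements, and CENPE, RACGAP1, NUMA1 and PCNA, were chosen after their values were seen. Alternatives were library totals, median-of-ratios factors, DESeq2 1.42.0, limma 3.58.1 on log2(FPKM + 1) and log2(FPKM + 0.1), a filter of 10 counts, the replicate number as a block and each library left out. Deviations of same-numbered libraries had correlations of 0.000644, -0.0193 and 0.0744, beside -0.0566 to 0.0572 for libraries with different numbers. The labels state no pairing, and these values cannot settle whether same-numbered libraries were made together. The number of libraries limits precision.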

Additional observations from a re-analysis of the deposited data

How the results depend on the processing

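Of the 32 tested kinesins, 25 had the same direction and the same side of the threshold under all 13 alternatives, and the 12 mitotic members were called lower under each of them. The median log2 fold change of the mitotic members was -0.76 under library totals, -0.68 under limma on log2(FPKM + 1) and -0.75 on log2(FPKM + 0.1), against -0.90. That of the other members was 0.41, 0.31 and 0.40, against 0.26. Leaving out each library gave -0.93 to -0.87 and 0.23 to 0.28. Without TMM scaling every gene moves up by about 0.15, which is the construction of that alternative. The mitotic share taken from CPM was 33.1% in sh-control and 19.9% in sh-circFTO, since CPM does not divide by length.

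KIF13B and KIFC3, which were not called, changed sign under library totals (0.076 for both), limma on log2(FPKM + 1) (0.064 and 0.067) and on log2(FPKM + 0.1) (0.074 for both). The calls of KIF5B, KIF16B, KIF17, KIF2A and KIF7 were lost under 1 or more alternatives. With the replicate number as a block, 12 mitotic members were lower, 5 others were lower and 12 others higher, with medians of -0.90 and 0.26, so no call count of the kinesins changed. Whether the numbers pair the libraries is not known. DESeq2 called 4227 genes lower and 4254 higher. The depth does not allow a statement on the 4 kinesins with at most 1 count. With 3 libraries a group, outlying libraries were not searched for.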
